A study of Canis lupus with 24 samples.

Results

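The 9 genes MDM2, CDKN1A, GDF15, SESN1, FAS, TP53INP1, ZMAT3, PLK3 and CCNG1, all known targets of the tumour suppressor p53 or regulators in its circuit of growth arrest, were followed across 24 microarrays. They were chosen by gene symbol, and each was represented by the 1 array feature that carried its symbol alone. All 9 were measured, out of 16295 named genes. The arrays (Affymetrix Canine Gene 1.1 ST) held RNA of K9TCC, a cell line derived from a transitional cell carcinoma of the dog bladder, in 8 groups of 3 arrays. Spheres, described by the submitters as cancer stem cell cultures, grew unattached in ultralow attachment plates without serum and with the growth factors EGF and bFGF. Adherent cells grew with fetal bovine serum. Either culture form received 50 µM mavacoxib, a COX-2 inhibitor used in dogs, or its solvent DMSO alone for 24 h, or was lipofected for 48 h with siRNA, either one labelled COX-2 or a negative control. Every group was the same line, so the arrays describe 1 tumour. Spheres and adherent cells differed in attachment, medium and serum at once, and these cannot be told apart. The labels' protocol also describes seeding of both forms under attachment-dependent conditions before transfection, so whether the transfected spheres stayed unattached is unclear.

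In the p53 pathway, a transcription factor that is kept scarce by its own target is released after DNA damage and other stress. MDM2, the ubiquitin ligase that marks p53 for degradation, is itself transcribed by p53 and closes this feedback loop, and CCNG1 (cyclin G1), another target, acts on MDM2 through protein phosphatase 2A. CDKN1A encodes p21, the inhibitor of cyclin-dependent kinases through which p53 arrests cells before S phase. PLK3 is a stress-responsive polo-like kinase that can phosphorylate p53. TP53INP1 is a p53-induced stress protein with roles in cell death and autophagy, and ZMAT3 is a p53-induced zinc finger protein that binds RNA. SESN1 is a sestrin, which restrains the growth kinase complex mTORC1. FAS is a death receptor at the cell surface. GDF15 is a secreted cytokine of the TGF-β superfamily, which the integrated stress response also induces. These roles are known mainly from human and mouse cells.

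Values are log2 signals, on which a difference of 1 is a doubling. Array medians lay between 4.68 and 5.02. No detection calls came with them. Signals under 4.82, the median of all values, may be background, and a difference that starts there can then only be read as a minimum. Levels are compared between arrays for 1 gene and never between genes. Differences are given ± the standard error of a limma fit to all 24 arrays, and "rose" and "fell" are used at an adjusted p under 0.05 (Benjamini-Hochberg over 16295 genes). Whether the 3 arrays of each group stand for separate cultures is not given in the labels. The p-values therefore rest on a spread between arrays that may be technical, and 3 arrays a group limit precision. PTGS2, which encodes COX-2, showed no fall on the arrays labelled COX-2 siRNA. Its difference from the negative siRNA was 1.16 ± 0.13 in spheres (adjusted p = 2.57e-07) and 0.33 ± 0.13 in adherent cells (adjusted p = 0.0888). For this reason the text speaks of arrays labelled COX-2 siRNA, and directions taken from them hold between labels.

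The culture forms set most of the p53 target genes apart. In spheres FAS fell to signals under the median of all values, MDM2, CCNG1, CDKN1A and ZMAT3 fell, and GDF15, PLK3 and SESN1 rose. With DMSO 8 of the 9 genes differed between spheres and adherent cells, 3 higher and 5 lower, where 46.1% of all genes differed (22.8% higher, 23.3% lower). With the negative siRNA all 9 differed, 3 higher and 6 lower, where 42.7% of all genes did (20.5% higher, 22.1% lower). The median difference of the 9 genes was -0.56 with DMSO and -0.82 with the negative siRNA, against -0.03 and -0.06 over all genes. In a bulk culture, fewer cells that express a gene and less of its RNA per cell cannot be told apart.

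**Figure D1:**
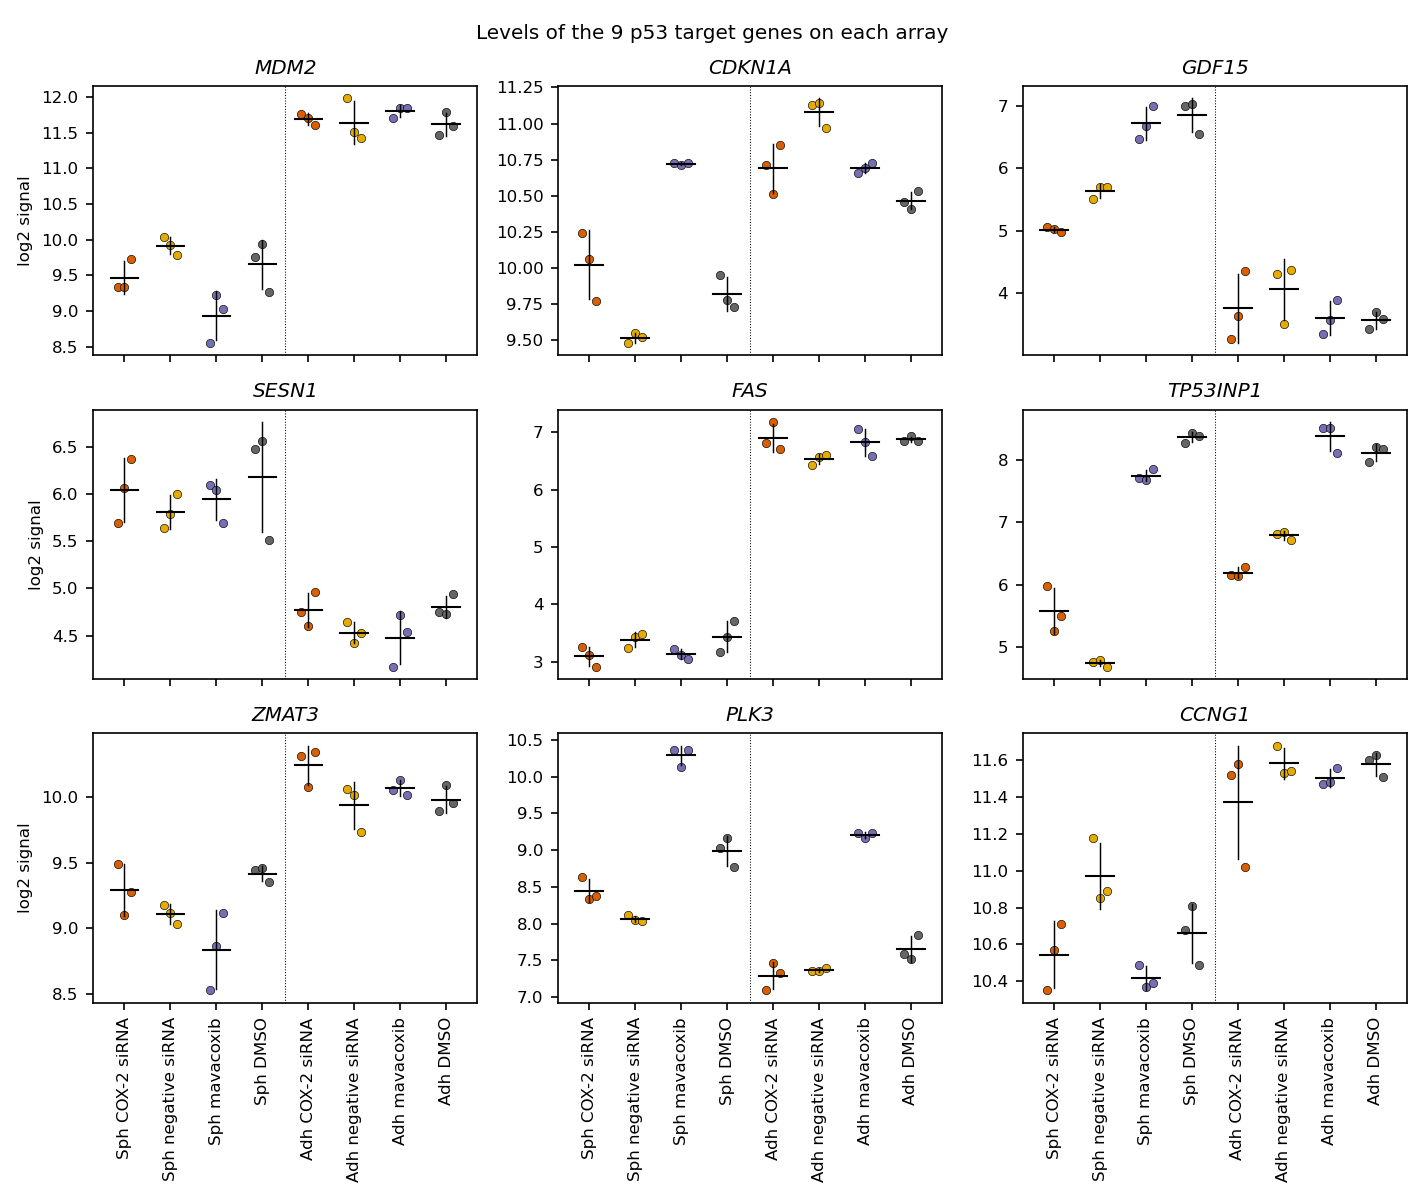
Log2 signal of each of the 9 genes on each of the 24 arrays (1 point per array), with the mean (horizontal bar) and SD (vertical line) of each group of 3. Sphere groups stand left and adherent groups right of the dotted line, and each panel has its own vertical axis. All sphere arrays lie below all adherent arrays for MDM2, FAS and ZMAT3 and above them for GDF15 and SESN1, TP53INP1 is low on every siRNA array, and PLK3 is high with mavacoxib in both culture forms.

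FAS, the death receptor, read 3.16, 3.43 and 3.70 in DMSO spheres, against 6.85, 6.93 and 6.85 in DMSO adherent cells. It read 3.23, 3.42 and 3.48 in negative siRNA spheres, against 6.43, 6.56 and 6.60 in negative siRNA adherent cells. The groups stood far apart in both settings, with every sphere array under the median of all values. The difference was -3.45 ± 0.15 with DMSO (adjusted p = 5.01e-15) and -3.15 ± 0.15 with the negative siRNA (adjusted p = 3.03e-14), and each gives the minimum of the fall if the sphere signal is background. MDM2, the p53 ligase, read 9.75, 9.94 and 9.27 in DMSO spheres, against 11.46, 11.79 and 11.59 in DMSO adherent cells. It read 10.04, 9.92 and 9.79 in negative siRNA spheres, against 11.98, 11.51 and 11.42 in negative siRNA adherent cells. No sphere array reached an adherent one. MDM2 was thus 3.89-fold lower in spheres with DMSO (-1.96 ± 0.18, adjusted p = 4.4e-09) and 3.29-fold lower with the negative siRNA (-1.72 ± 0.18, adjusted p = 4.44e-08).

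GDF15 ran the opposite way. This cytokine gene read 6.99, 7.02 and 6.54 in DMSO spheres, against 3.42, 3.69 and 3.58 in DMSO adherent cells. In negative siRNA spheres it read 5.51, 5.70 and 5.69, against 4.30, 3.50 and 4.37 in negative siRNA adherent cells. GDF15 rose in spheres by 3.29 ± 0.23 with DMSO (adjusted p = 5.11e-11) and by 1.58 ± 0.23 with the negative siRNA (adjusted p = 6.79e-06). These are minimum rises if the adherent signal, all of it under the median of all values, is background. SESN1, the sestrin, read 6.48, 6.56 and 5.51 in DMSO spheres, against 4.75, 4.73 and 4.94 in DMSO adherent cells. The third DMSO sphere array was the lowest sphere reading of the gene, and still above every adherent one. SESN1 rose by 1.38 ± 0.22 in spheres with DMSO (adjusted p = 1.33e-05) and by 1.28 ± 0.22 with the negative siRNA (adjusted p = 3.97e-05). The DMSO adherent arrays lay close to the median of all values. The negative siRNA adherent arrays, at 4.64, 4.42 and 4.53, all lay under it. These too are minimum rises if the adherent signal is background. PLK3, the stress kinase, read 9.03, 9.17 and 8.77 in DMSO spheres, against 7.59, 7.52 and 7.85 in DMSO adherent cells. It rose by 1.34 ± 0.12 in spheres with DMSO (adjusted p = 4.31e-09) and by 0.70 ± 0.12 with the negative siRNA (adjusted p = 6.39e-05).

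CCNG1 and ZMAT3 fell in spheres under both controls. CCNG1, the cyclin, read 10.68, 10.81 and 10.49 in DMSO spheres, against 11.60, 11.63 and 11.51 in DMSO adherent cells, without overlap. It fell by 0.92 ± 0.14 with DMSO (adjusted p = 5.06e-06) and by 0.61 ± 0.14 with the negative siRNA (adjusted p = 0.000736). ZMAT3 read 9.44, 9.46 and 9.35 in DMSO spheres, against 9.89, 10.09 and 9.95 in DMSO adherent cells. This RNA-binding factor fell by 0.56 ± 0.14 with DMSO (adjusted p = 0.00144) and by 0.82 ± 0.14 with the negative siRNA (adjusted p = 2.56e-05). Several of the culture differences were not of 1 size under both controls, which was not itself tested. Beside GDF15 and PLK3, given above, these were CDKN1A and TP53INP1. CDKN1A, the gene of p21, read 9.95, 9.78 and 9.73 in DMSO spheres, against 10.46, 10.41 and 10.53 in DMSO adherent cells. It read 9.48, 9.55 and 9.52 in negative siRNA spheres, against 11.13, 11.14 and 10.97 in negative siRNA adherent cells. It fell by 0.65 ± 0.11 with DMSO (adjusted p = 4.77e-05) and by 1.56 ± 0.11 with the negative siRNA (adjusted p = 8.15e-11). TP53INP1 read 8.28, 8.44 and 8.38 in DMSO spheres, against 7.97, 8.21 and 8.18 in DMSO adherent cells, and the 0.25 ± 0.14 between them missed the threshold (adjusted p = 0.179). With the negative siRNA the same gene read 4.75, 4.79 and 4.68 in spheres, against 6.82, 6.85 and 6.71 in adherent cells, and was 4.15-fold lower in spheres (-2.05 ± 0.14, adjusted p = 4.4e-11). The sphere signal lay under the median of all values, so this is a minimum if that signal is background.

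**Figure D2:**
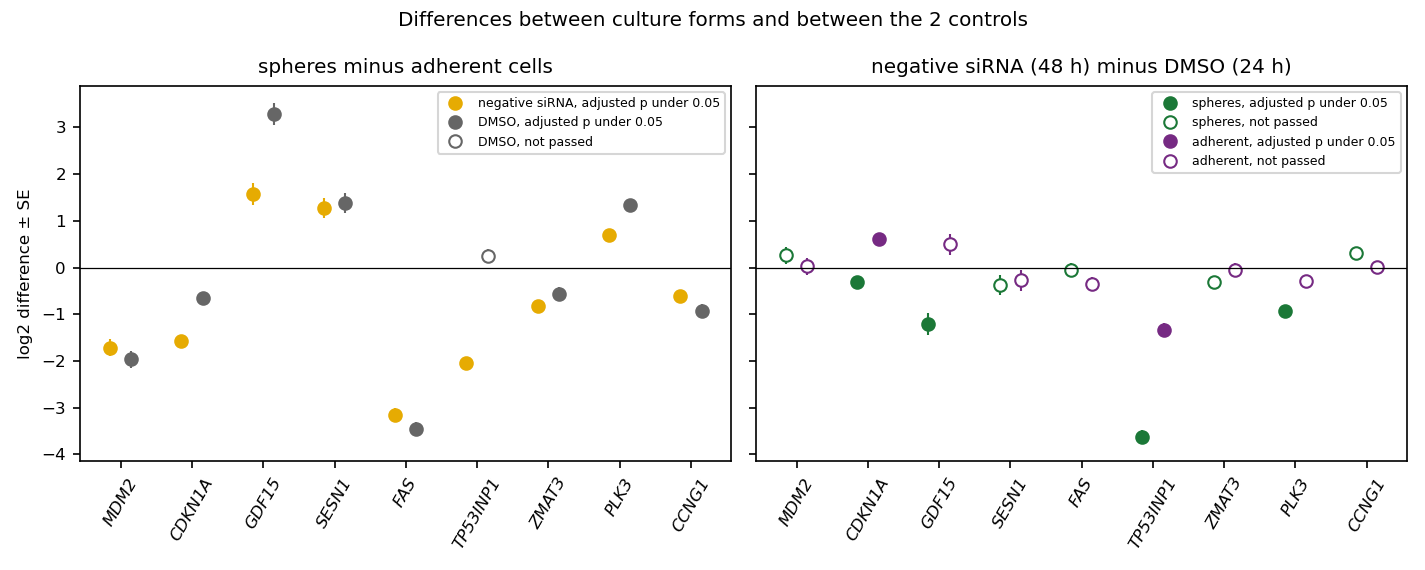
Log2 difference ± standard error of the limma fit for each of the 9 genes. The left panel gives spheres minus adherent cells under each control and the right panel negative siRNA (48 h) minus DMSO (24 h) in each culture form; filled points passed at an adjusted p under 0.05. FAS and MDM2 lie lowest on the left under DMSO and GDF15 highest, and on the right TP53INP1 in spheres stands at -3.63.

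Over all treatments, 5 of the 9 genes separated the 12 sphere arrays from the 12 adherent arrays without overlap, where 15.3% of all genes did (7.47% with spheres above, 7.79% with spheres below). MDM2 ran from 8.55 to 10.04 (median 9.54) in spheres, against 11.42 to 11.98 (median 11.71) in adherent cells. FAS ran from 2.91 to 3.70 in spheres, against 6.43 to 7.18 in adherent cells, and ZMAT3 from 8.53 to 9.49 in spheres, against 9.73 to 10.34 in adherent cells. These 3 genes were lower on every sphere array. GDF15 and SESN1 were higher on every sphere array. GDF15 ran from 4.97 to 7.02 in spheres, against 3.27 to 4.37 in adherent cells. SESN1 ran from 5.51 to 6.56 in spheres, against 4.17 to 4.96 in adherent cells. CDKN1A, TP53INP1, PLK3 and CCNG1 overlapped.

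Single regulators of p53 and markers of the bladder lining moved with culture form as well. TP63, a p53 family member known for basal epithelial cells, averaged 9.32 in DMSO spheres and 4.54 in DMSO adherent cells, a rise of 4.78 ± 0.18 (adjusted p = 7.91e-16). TP73, the third member of the p53 family, averaged 7.15 in DMSO spheres and 4.24 in DMSO adherent cells (2.92 ± 0.20, adjusted p = 2.87e-11). Both adherent means lay under the median of all values, so these are minimum rises if the adherent signal is background. CDKN2A, whose ARF product restrains MDM2, rose by 0.94 ± 0.11 with DMSO (adjusted p = 1.9e-07) and by 0.78 ± 0.11 with the negative siRNA (adjusted p = 3.41e-06). As a list, the 17 measured regulators of p53 stood near the share of all genes. With DMSO 4 rose, 5 fell and 8 did not pass, where 46.1% of all genes differed, and with the negative siRNA 7 rose, 1 fell and 9 did not pass, where 42.7% did. Of 14 measured markers of bladder urothelium and epithelium, 2 rose, 9 fell and 3 did not pass in DMSO spheres. Their log2 signals summed to between 112.42 and 113.58 on DMSO sphere arrays, against 129.08 to 131.34 on DMSO adherent arrays. The uroplakins UPK1A and UPK3A, which coat the luminal cells of the bladder, averaged 3.83 and 3.81 in DMSO spheres, against 11.12 and 11.31 in DMSO adherent cells. The basal keratin KRT5 averaged 12.04 in DMSO spheres and 3.62 in DMSO adherent cells. The lower mean of each of these markers also lay under the median of all values. Of 7 fibroblast markers, 3 averaged over the median of all values in DMSO spheres and 1 in DMSO adherent cells, with sums of 32.38 to 33.77 on DMSO sphere arrays and 28.35 to 29.66 on DMSO adherent arrays. Markers of leukocytes stayed under the median of all values in all groups, and endothelial markers did so except for 1 gene in spheres with DMSO or mavacoxib. The part of these markers in the differences of the p53 targets was not tested.

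Other p53 targets did not share 1 direction between the culture forms. Of 25 measured, 7 rose, 10 fell and 8 did not pass in DMSO spheres, where 46.1% of all genes differed (22.8% higher, 23.3% lower). The median difference of the 25 was -0.22. The ceramidase gene ACER2 fell by 2.94 ± 0.20 (adjusted p = 2.15e-11) and the antiproliferative gene BTG2 by 2.33 ± 0.19 (adjusted p = 3.83e-10). The autophagy gene DRAM1 rose by 2.29 ± 0.16 (adjusted p = 2.65e-11) and the DNA repair gene DDB2 by 1.38 ± 0.12 (adjusted p = 2.58e-09). DRAM1 averaged 4.49 in DMSO adherent cells, under the median of all values, so its rise is a minimum if that signal is background. The direction of the 17 cyclins, CDKs and RB family genes did not hold under both controls. With DMSO 2 rose and 9 fell in spheres (median -0.63), where 46.1% of all genes differed. With the negative siRNA 5 rose and 3 fell (median -0.04), a share near the 42.7% of all genes that differed. Among those that fell with DMSO was CCNE2, a cyclin of S-phase entry, at -2.18 ± 0.15 (adjusted p = 2.61e-11). Of the 8 measured genes of the death receptor pathway around FAS, 1 rose and 3 fell in DMSO spheres, a share near the 46.1% of all genes that differed there. CASP10, a caspase activated at death receptors, fell by 1.47 ± 0.15 (adjusted p = 2.26e-08), and CFLAR, the inhibitor of that step, rose by 0.96 ± 0.22 (adjusted p = 0.000793). With the negative siRNA none of the 8 passed in the limma fit (2 at an unadjusted p under 0.05), and CASP10, at -0.35 ± 0.15, had the smallest p (adjusted p = 0.0657). GFRAL, the receptor of GDF15, averaged 1.96 in DMSO spheres and 2.04 in DMSO adherent cells, and its partner RET averaged 3.83 in DMSO spheres and 3.91 in DMSO adherent cells, all under the median of all values.

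With mavacoxib, PLK3 rose in both culture forms. In spheres CDKN1A rose as well, while MDM2, TP53INP1 and ZMAT3 fell, so that p53 targets moved both ways. In spheres 5 of the 9 genes differed between mavacoxib and DMSO, 2 higher and 3 lower, where 21.4% of all genes differed (11.1% higher, 10.3% lower). In adherent cells 1 of the 9 differed, where 4.12% of all genes did (2.61% higher, 1.5% lower). The median difference of the 9 genes was -0.24 in spheres and 0.09 in adherent cells, against -0.01 and 0.04 over all genes.

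PLK3 read 10.37, 10.14 and 10.37 in mavacoxib spheres, against 9.03, 9.17 and 8.77 in DMSO spheres. It read 9.23, 9.16 and 9.24 in mavacoxib adherent cells, against 7.59, 7.52 and 7.85 in DMSO adherent cells. Treated and vehicle arrays did not overlap in either form, and the treated adherent cells reached the level of vehicle spheres. The kinase gene was 2.47-fold higher with mavacoxib in spheres (1.30 ± 0.12, adjusted p = 1.01e-07) and 2.94-fold higher in adherent cells (1.56 ± 0.12, adjusted p = 7.74e-08). The difference between those effects was -0.25 ± 0.17 and did not pass (adjusted p = 0.444), but passed with array weights (-0.38, adjusted p = 0.0454).

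CDKN1A read 10.73, 10.71 and 10.73 in mavacoxib spheres, against 9.95, 9.78 and 9.73 in DMSO spheres. It read 10.66, 10.69 and 10.73 in mavacoxib adherent cells, against 10.46, 10.41 and 10.53 in DMSO adherent cells. The treated arrays of both forms lay between 10.66 and 10.73. CDKN1A rose by 0.90 ± 0.11 in spheres (1.87-fold, adjusted p = 4.62e-06), and the 0.23 ± 0.11 in adherent cells did not pass (adjusted p = 0.333). With array weights the adherent difference passed (0.26, adjusted p = 0.047). The sphere effect exceeded the adherent effect by 0.68 ± 0.16 (adjusted p = 0.00778). MDM2 read 8.55, 9.22 and 9.03 in mavacoxib spheres, against 9.75, 9.94 and 9.27 in DMSO spheres, where the highest treated array came close to the lowest vehicle array without passing it. Its fall by 0.72 ± 0.18 (adjusted p = 0.00604) did not hold without the first mavacoxib array (-0.53, adjusted p = 0.0513) or with the 6 arrays fitted alone (adjusted p = 0.0558). In adherent cells MDM2 read 11.71, 11.85 and 11.85 with mavacoxib, against 11.46, 11.79 and 11.59 with DMSO, and the 0.19 ± 0.18 between them missed the threshold (adjusted p = 0.695).

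TP53INP1 read 7.72, 7.68 and 7.85 in mavacoxib spheres, against 8.28, 8.44 and 8.38 in DMSO spheres, and fell by 0.62 ± 0.14 (adjusted p = 0.00331). In adherent cells it read 8.52, 8.51 and 8.11 with mavacoxib, against 7.97, 8.21 and 8.18 with DMSO, with overlap and no passing difference (0.26 ± 0.14, adjusted p = 0.401). The effects on this stress protein gene differed by -0.88 ± 0.20 between the forms (adjusted p = 0.00668). ZMAT3 read 8.53, 8.87 and 9.12 in mavacoxib spheres, against 9.44, 9.46 and 9.35 in DMSO spheres. Its 3 treated arrays were spread over a wider range than the vehicle arrays but stayed below them. ZMAT3 fell by 0.58 ± 0.14 (adjusted p = 0.0035, and 0.0507 with the 6 arrays fitted alone). GDF15, SESN1, FAS and CCNG1 did not pass in either culture form, with differences from -0.33 for SESN1 in adherent cells to 0.04 for GDF15 in adherent cells. SESN1 in spheres was -0.24 ± 0.22 (adjusted p = 0.529), and without the third DMSO array, its low one, it fell by 0.57 (adjusted p = 0.0326). With array weights both SESN1 (-0.55, adjusted p = 0.00696) and CCNG1 (-0.29, adjusted p = 0.0413) fell in spheres.

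**Figure D3:**
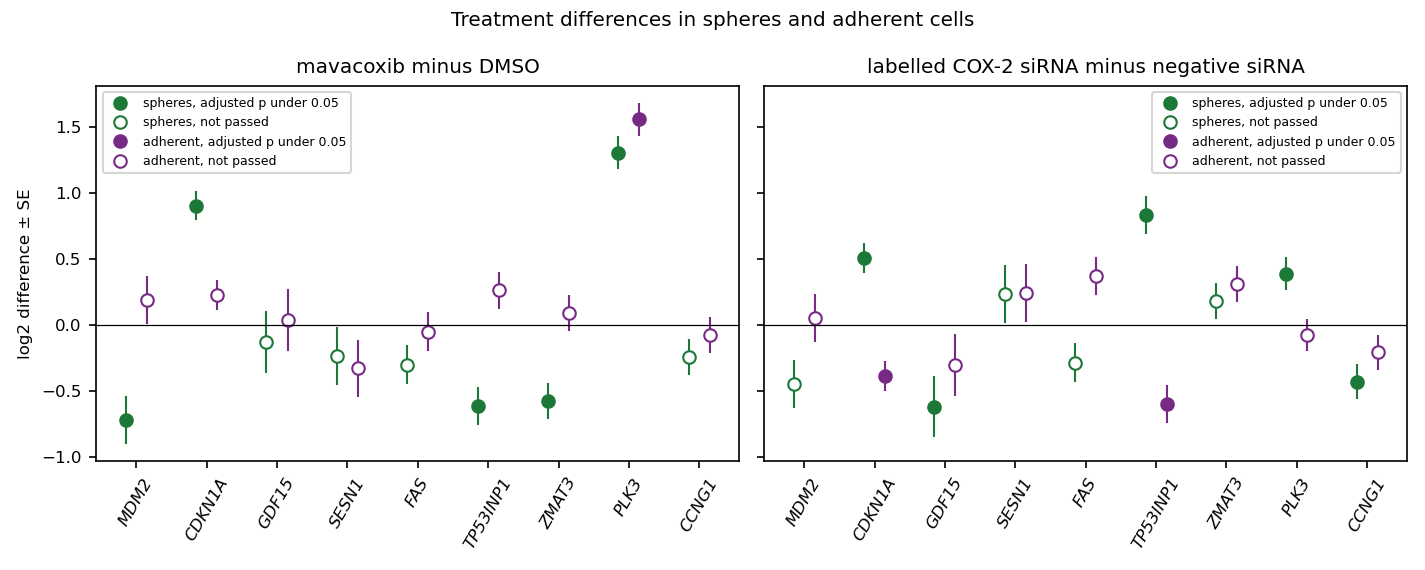
Log2 difference ± standard error of the limma fit for each of the 9 genes, for mavacoxib minus DMSO (left) and labelled COX-2 siRNA minus negative siRNA (right), in spheres (green) and adherent cells (purple). Filled points passed at an adjusted p under 0.05. PLK3 stands at 1.30 in spheres and 1.56 in adherent cells with mavacoxib, and TP53INP1 has opposite signs in spheres (0.83) and adherent cells (-0.60) in the siRNA comparison.

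Between the culture forms, 4 of the 9 genes differed in their mavacoxib effect, where 10.3% of all genes did (4.49% higher in spheres, 5.82% lower). These were CDKN1A and TP53INP1, given above, MDM2 at -0.91 ± 0.26 (adjusted p = 0.024) and ZMAT3 at -0.66 ± 0.19 (adjusted p = 0.0275). The MDM2 call ended when any 1 of 6 arrays was left out (adjusted p up to 0.079). The ZMAT3 call ended when any 1 of 7 was left out (adjusted p up to 0.0863), with every array shifted to 1 median (adjusted p = 0.0694) and with only the arrays compared in the fit (adjusted p = 0.0507). For MDM2 the sphere effect was negative and the adherent effect positive, and so it was for TP53INP1 and ZMAT3, though none of those adherent effects passed.

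Outside the 9 genes, other p53 targets mostly rose where they passed. Of 25 measured, 8 rose, 1 fell and 16 did not pass in spheres, where 21.4% of all genes differed (11.1% higher, 10.3% lower). In adherent cells 3 rose, 1 fell and 21 did not pass, where 4.12% of all genes differed (2.61% higher, 1.5% lower). The list's median was 0.14 in spheres and 0.12 in adherent cells. PMAIP1, the gene of the death-promoting protein NOXA, rose by 2.51 ± 0.16 in spheres (adjusted p = 2.45e-10) and by 0.95 ± 0.16 in adherent cells (adjusted p = 0.000971). BTG2 rose by 1.94 ± 0.19 in spheres (adjusted p = 1.26e-07), and its effect there exceeded that in adherent cells by 2.32 ± 0.26 (adjusted p = 4.18e-06). SESN2, the sestrin shared with the stress response, rose by 0.97 ± 0.11 in spheres (adjusted p = 8.95e-07) and by 1.14 ± 0.11 in adherent cells (adjusted p = 8.08e-07), while its relative SESN1 did not pass. Genes of the integrated stress response rose in 7 of 8 cases in spheres, where 11.1% of all genes rose. In adherent cells they rose in 6 of 8 cases, where 2.61% of all genes rose, and none fell in either form. Interferon-induced genes moved with mavacoxib too. In spheres 3 of 5 rose and 0 fell, where 21.4% of all genes differed. Those that rose were IRF1 at 4.25 ± 0.18 (adjusted p = 8.46e-13), CXCL10 at 3.33 ± 0.19 (adjusted p = 7.22e-11) and ISG15 at 3.58 ± 0.21 (adjusted p = 7.53e-11). These 3 averaged under the median of all values in DMSO spheres. In adherent cells 2 of the 5 rose and 1 fell, where 4.12% of all genes differed. Their part in the differences of the p53 targets was not tested. Among regulators of p53, HIPK2, a kinase of p53, fell by 0.83 ± 0.13 in spheres (adjusted p = 7.11e-05) and rose by 0.51 ± 0.13 in adherent cells (adjusted p = 0.0265). TP73 and TP63 fell in spheres, by 1.62 ± 0.20 (adjusted p = 4.01e-06) and by 0.80 ± 0.18 (adjusted p = 0.00284). MDM4, the partner of MDM2, differed by 0.49 ± 0.15 in adherent cells and did not pass (adjusted p = 0.0739).

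Cell cycle genes fell in part in both forms. Of 17 cyclins, CDKs and RB family genes, 1 rose and 5 fell in mavacoxib spheres, where 21.4% of all genes differed (11.1% higher, 10.3% lower). In mavacoxib adherent cells 0 rose and 6 fell, where 4.12% of all genes differed (2.61% higher, 1.5% lower). E2F1, the factor of S-phase entry, fell by 0.71 ± 0.11 in spheres (adjusted p = 9.57e-05) and by 0.84 ± 0.11 in adherent cells (adjusted p = 9.16e-05). CCND2, a D-type cyclin, fell by 1.17 ± 0.12 in spheres (adjusted p = 1.93e-07). CCNE2 fell by 0.87 ± 0.15 in adherent cells (adjusted p = 0.00119), where CDKN1A did not pass. Of 6 other CDK inhibitors none passed in spheres in the limma fit (0 at an unadjusted p under 0.05), where 21.4% of all genes passed. CDKN1B came closest at 0.25 ± 0.14 (adjusted p = 0.244). In adherent cells 3 of the 6 fell, where 1.5% of all genes did, among them CDKN2C at -0.83 ± 0.14 (adjusted p = 0.000734).

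PLK3 had the stress gene DDIT3, which encodes the transcription factor CHOP, among the 3 genes most like it over the 24 arrays. Pearson's r was 0.972 with NFIL3, 0.954 with DDIT3 and 0.934 with SEL1L. DDIT3 read 10.10, 10.01 and 9.98 in mavacoxib spheres, against 8.42, 8.60 and 8.02 in DMSO spheres. In adherent cells it read 8.33, 8.45 and 8.25 with mavacoxib, against 6.50, 6.83 and 6.26 with DMSO. Both genes were high with mavacoxib and higher in spheres, and the points share those groups. With group means removed, r was -0.01 between PLK3 and DDIT3, 0.28 between PLK3 and NFIL3 and 0.51 between PLK3 and SEL1L.

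**Figure D4:**
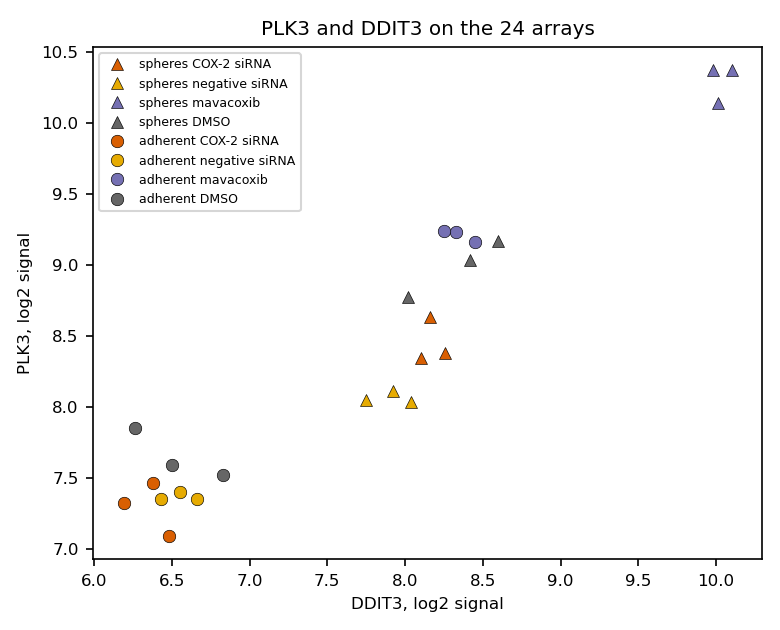
Log2 signal of PLK3 against that of DDIT3, 1 point per array (24 arrays; triangles for spheres, circles for adherent cells, colours for treatments). The mavacoxib spheres lie at the upper right with PLK3 at 10.14 to 10.37, and mavacoxib adherent cells lie beside DMSO spheres; Pearson's r is 0.954 over all arrays and -0.01 with group means removed.

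On the arrays labelled COX-2 siRNA, TP53INP1 and CDKN1A moved in opposite directions in the culture forms, higher than with the negative siRNA in spheres and lower in adherent cells. PLK3 rose in spheres, and GDF15 and CCNG1 fell there. In spheres 5 of the 9 genes differed, 3 higher and 2 lower, where 39% of all genes differed (15.8% higher, 23.3% lower). In adherent cells 2 of the 9 differed, both lower, where 15% of all genes did (6.42% higher, 8.59% lower). The median difference of the 9 genes was 0.18 in spheres and -0.08 in adherent cells, against -0.04 and -0.05 over all genes.

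TP53INP1 read 5.98, 5.25 and 5.49 in spheres labelled COX-2 siRNA, against 4.75, 4.79 and 4.68 in negative siRNA spheres. In adherent cells it read 6.15, 6.14 and 6.29 on arrays labelled COX-2 siRNA, against 6.82, 6.85 and 6.71 with the negative siRNA. Neither pair overlapped. The gene rose by 0.83 ± 0.14 in spheres (adjusted p = 6.89e-05) and fell by 0.60 ± 0.14 in adherent cells (adjusted p = 0.00632), a difference between the effects of 1.43 ± 0.20 (adjusted p = 4.3e-05). CDKN1A read 10.24, 10.06 and 9.77 in spheres labelled COX-2 siRNA, against 9.48, 9.55 and 9.52 in negative siRNA spheres. In adherent cells it read 10.71, 10.51 and 10.85 on arrays labelled COX-2 siRNA, against 11.13, 11.14 and 10.97 with the negative siRNA. The p21 gene rose by 0.51 ± 0.11 in spheres (adjusted p = 0.001). It fell by 0.39 ± 0.11 in adherent cells (adjusted p = 0.0218), a call that ended with the 6 arrays fitted alone (adjusted p = 0.0806) and when any 1 of 4 arrays was left out (adjusted p up to 0.124). The effects differed by 0.90 ± 0.16 (adjusted p = 0.000532).

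PLK3 read 8.63, 8.34 and 8.38 in spheres labelled COX-2 siRNA, against 8.11, 8.05 and 8.03 in negative siRNA spheres, and rose by 0.39 ± 0.12 (adjusted p = 0.0156). This rise did not pass with every array shifted to 1 median (0.27, adjusted p = 0.113), with the 6 arrays fitted alone (adjusted p = 0.0543) or without the first array labelled COX-2 siRNA (0.30, adjusted p = 0.0802). GDF15 read 5.05, 5.02 and 4.97 in spheres labelled COX-2 siRNA, against 5.51, 5.70 and 5.69 in negative siRNA spheres. It fell by 0.62 ± 0.23 (adjusted p = 0.0397), and leaving out any 1 of the 6 arrays ended the call (adjusted p from 0.0519 to 0.0977). CCNG1 read 10.35, 10.57 and 10.71 in spheres labelled COX-2 siRNA, against 11.18, 10.85 and 10.89 in negative siRNA spheres. It fell by 0.43 ± 0.14 (adjusted p = 0.0144), and did not pass without the first array of either group (adjusted p = 0.0742 and 0.0915) or with the 6 arrays fitted alone (adjusted p = 0.0635). MDM2 read 9.34, 9.33 and 9.73 in spheres labelled COX-2 siRNA, against 10.04, 9.92 and 9.79 in negative siRNA spheres. Its difference of -0.45 ± 0.18 just missed the threshold (adjusted p = 0.0538), and passed after quantile normalization (adjusted p = 0.028), with every array shifted to 1 median (adjusted p = 0.0198) and in 4 other alternatives.

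FAS, SESN1 and ZMAT3 did not pass in either form. FAS differed by -0.29 ± 0.15 in spheres (adjusted p = 0.133), and fell there after quantile normalization (adjusted p = 0.0348), with every array shifted to 1 median (adjusted p = 0.0408) and with array weights (adjusted p = 0.00487). It differed by 0.37 ± 0.15 in adherent cells (adjusted p = 0.0972), and the difference between these effects was -0.66 ± 0.21 (adjusted p = 0.0356). FAS lay under the median of all values in spheres, and this call ended when any 1 of 7 arrays was left out (adjusted p up to 0.103), with trend and robust variance (adjusted p = 0.0653) and with only the arrays compared in the fit (adjusted p = 0.0511). SESN1 differed by 0.23 ± 0.22 in spheres, where it rose by 0.47 with array weights (adjusted p = 0.00622), and by 0.24 ± 0.22 in adherent cells. ZMAT3 differed by 0.18 ± 0.14 in spheres and 0.31 ± 0.14 in adherent cells. In all, 3 of the 9 genes differed between culture forms in the effect of the labelled siRNA, where 15.3% of all genes did (6.74% higher in spheres, 8.53% lower), namely TP53INP1, CDKN1A and FAS.

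Interferon-induced genes and some markers of the bladder lining moved with the labelled siRNA. Of the 14 bladder markers, 2 rose and 5 fell in spheres, where 39% of all genes differed (15.8% higher, 23.3% lower). In adherent cells 0 rose and 5 fell, where 15% of all genes differed (6.42% higher, 8.59% lower). The log2 signals of the 14 markers summed to between 107.03 and 108.93 in spheres labelled COX-2 siRNA. This overlapped the 108.57 to 109.00 of negative siRNA spheres. In adherent cells labelled COX-2 siRNA they summed to between 124.98 and 125.77, against 128.16 to 129.39 in negative siRNA adherent cells. All 5 measured interferon-induced genes rose in both forms, CXCL10 by 7.09 ± 0.19 in spheres (adjusted p = 8.3e-18) and MX1 by 5.45 ± 0.19 in adherent cells (adjusted p = 9.73e-16). The part of these genes and markers in the differences of the p53 targets was not tested. Of 25 other p53 targets, 8 rose, 5 fell and 12 did not pass in spheres labelled COX-2 siRNA, where 39% of all genes differed. In adherent cells 3 rose, 3 fell and 19 did not pass, where 15% of all genes differed. PMAIP1 rose by 3.07 ± 0.16 in spheres (adjusted p = 1.03e-12) and by 2.15 ± 0.16 in adherent cells (adjusted p = 1.59e-09). DDB2 fell by 1.21 ± 0.12 in spheres (adjusted p = 7.72e-08) and by 1.02 ± 0.12 in adherent cells (adjusted p = 4.26e-06). SESN2 rose by 1.69 ± 0.11 in spheres (adjusted p = 3.65e-11) and BTG2 by 1.80 ± 0.19 (adjusted p = 8.76e-08), and each sphere effect exceeded the adherent one, by 1.41 ± 0.15 for SESN2 (adjusted p = 1.23e-06) and by 1.58 ± 0.26 for BTG2 (adjusted p = 0.000267). Cyclins, CDKs and RB family genes fell in 12 of 17 cases in spheres labelled COX-2 siRNA, where 23.3% of all genes fell. In adherent cells they fell in 4 of 17 cases, where 8.59% of all genes fell, and none rose in either form. E2F1 fell by 1.75 ± 0.11 in spheres (adjusted p = 5.43e-11) and by 0.60 ± 0.11 in adherent cells (adjusted p = 0.000933). Of 6 other CDK inhibitors, 1 rose, 4 fell and 1 did not pass in spheres labelled COX-2 siRNA, where 39% of all genes differed. The 1 that rose was CDKN2B, the gene of the CDK inhibitor p15, at 1.63 ± 0.16 (adjusted p = 5.57e-08). CDKN2C fell by 1.59 ± 0.14 (adjusted p = 4.8e-09). Among regulators of p53, TP73 fell by 1.16 ± 0.20 in spheres (adjusted p = 7.36e-05), and ATM, the DNA damage kinase, rose by 0.58 ± 0.18 in adherent cells (adjusted p = 0.029).

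Among the comparisons within a culture form, the largest difference in any of these genes lay between the controls. TP53INP1 was 12.4-fold lower in negative siRNA spheres than in DMSO spheres, which is a minimum if its low signal is background. The 4.75, 4.79 and 4.68 of negative siRNA spheres stood against 8.28, 8.44 and 8.38 in DMSO spheres (-3.63 ± 0.14, adjusted p = 3.46e-14). The lower group lay just under the median of all values. In adherent cells, 6.82, 6.85 and 6.71 with the negative siRNA stood against 7.97, 8.21 and 8.18 with DMSO (-1.33 ± 0.14, adjusted p = 5.44e-06). Over both culture forms the 12 siRNA arrays ran from 4.68 to 6.85 (median 6.06), against 7.68 to 8.52 (median 8.20) on the 12 mavacoxib and DMSO arrays. TP53INP1 was the 1 gene of the 9 whose siRNA arrays all lay on one side, where 0.583% of all genes did so (0.276% with the siRNA arrays below). Negative siRNA and DMSO groups differ in transfection and in hours (48 h and 24 h), which cannot be told apart. PTGS2 also differed between them, by -1.80 ± 0.13 in spheres (adjusted p = 2.98e-10) and by 1.39 ± 0.13 in adherent cells (adjusted p = 9.07e-07). Since PTGS2 does not bear out the siRNA labels, the negative siRNA arrays too are known by label alone, and these values hold between labels.

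In spheres 4 of the 9 genes differed between negative siRNA and DMSO, all lower, where 35.3% of all genes differed (16.4% lower). GDF15 read 5.51, 5.70 and 5.69 with the negative siRNA, against 6.99, 7.02 and 6.54 with DMSO, and fell by 1.22 ± 0.23 (adjusted p = 0.00024). PLK3 read 8.11, 8.05 and 8.03 with the negative siRNA, against 9.03, 9.17 and 8.77 with DMSO, and fell by 0.93 ± 0.12 (adjusted p = 2.87e-06). CDKN1A fell by 0.30 ± 0.11 (adjusted p = 0.0407), a call that ended with every array shifted to 1 median (adjusted p = 0.142), with the 6 arrays fitted alone (adjusted p = 0.123) and when any 1 of 5 arrays was left out (adjusted p up to 0.17). SESN1 differed by -0.37 ± 0.22 (adjusted p = 0.205). Without the third DMSO array it fell by 0.71 (adjusted p = 0.00459), and it fell with array weights too (-0.69, adjusted p = 3.44e-05). CCNG1 differed by 0.31 ± 0.14 (adjusted p = 0.0785), and rose with every array shifted to 1 median (adjusted p = 0.0422), without dim genes (adjusted p = 0.0459), with trend and robust variance (adjusted p = 0.0291) and with array weights (adjusted p = 0.0203). ZMAT3 differed by -0.31 ± 0.14 (adjusted p = 0.0852), and fell after quantile normalization (adjusted p = 0.0218), with trend and robust variance (adjusted p = 0.0446) and with array weights (adjusted p = 0.00232). In adherent cells 2 of the 9 differed, 1 higher and 1 lower, where 13.9% of all genes did (8.74% higher, 5.11% lower). Beside the fall of TP53INP1, CDKN1A rose, with 11.13, 11.14 and 10.97 on negative siRNA arrays, against 10.46, 10.41 and 10.53 with DMSO (0.61 ± 0.11, adjusted p = 0.000891). GDF15 differed by 0.49 ± 0.23 in adherent cells (adjusted p = 0.176), and without the second negative siRNA array, its low one, it rose by 0.77 (adjusted p = 0.0402). FAS differed there by -0.35 ± 0.15 (adjusted p = 0.127), and fell with array weights (adjusted p = 0.0266). PLK3 differed there by -0.29 ± 0.12 (adjusted p = 0.133), and fell after quantile normalization (adjusted p = 0.0465).

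Cell cycle genes separated the same controls. Of 17 cyclins, CDKs and RB family genes, 12 rose and 1 fell in negative siRNA spheres, where 35.3% of all genes differed (19% higher, 16.4% lower). The median difference of the 17 was 0.94, against 0.04 over all genes. In adherent cells 5 rose and 1 fell, where 13.9% of all genes differed (8.74% higher, 5.11% lower). CCNE2 rose by 2.65 ± 0.15 (adjusted p = 7.8e-12) and E2F1 by 2.40 ± 0.11 (adjusted p = 5.48e-13) in negative siRNA spheres. The direction of the culture difference in E2F1 turned with the control, at 1.11 ± 0.11 for spheres minus adherent cells with the negative siRNA (adjusted p = 2.79e-08) and -0.84 ± 0.11 with DMSO (adjusted p = 1.67e-06). Of 25 other p53 targets, 5 rose and 4 fell in negative siRNA spheres, a share near the 35.3% of all genes that differed there. PLK2, a kinase related to PLK3, was among those that fell in these spheres, at -0.91 ± 0.12 (adjusted p = 2.59e-06). CHEK1, a checkpoint kinase, rose there by 1.24 ± 0.14 (adjusted p = 2.2e-07).

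Ordered by group mean, the 9 genes fell into different orders. For MDM2, ZMAT3, FAS and CCNG1 the 4 adherent groups ranked above the 4 sphere groups, and in each gene the arrays of neighbouring adherent groups overlapped. MDM2 ranked from 11.80 ± 0.08 (SD, n = 3) in mavacoxib adherent cells to 8.93 ± 0.35 in mavacoxib spheres, so that the drug held both ends of its order. ZMAT3 ranked from 10.24 ± 0.15 in adherent cells labelled COX-2 siRNA to 8.84 ± 0.30 in mavacoxib spheres, and neighbouring sphere groups overlapped too. CCNG1 ranked from 11.58 ± 0.08 in negative siRNA adherent cells to 10.42 ± 0.06 in mavacoxib spheres. A single CCNG1 reading, 11.02 in adherent cells labelled COX-2 siRNA, lay below the first negative siRNA sphere array, at 11.18.

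GDF15 and SESN1 had the reverse order, with all sphere groups on top. GDF15 fell into steps, from 6.85 ± 0.27 in DMSO spheres and 6.72 ± 0.27 in mavacoxib spheres, which overlapped, through 5.63 ± 0.11 in negative siRNA spheres to 5.01 ± 0.04 in spheres labelled COX-2 siRNA. The adherent groups, between 3.56 and 4.06, overlapped each other. SESN1 spanned 6.18 ± 0.58 in DMSO spheres to 5.81 ± 0.18 in negative siRNA spheres, all overlapping their neighbours.

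CDKN1A, PLK3 and TP53INP1 mixed the culture forms. CDKN1A was highest in negative siRNA adherent cells (11.08 ± 0.10) and lowest in negative siRNA spheres (9.52 ± 0.04). Between them, mavacoxib spheres (10.72 ± 0.01), mavacoxib adherent cells (10.69 ± 0.04) and adherent cells labelled COX-2 siRNA (10.69 ± 0.17) overlapped as neighbours. PLK3 was highest in mavacoxib spheres (10.29 ± 0.13), followed by mavacoxib adherent cells (9.21 ± 0.04) and DMSO spheres (8.99 ± 0.20), which overlapped. It was lowest in adherent cells labelled COX-2 siRNA (7.29 ± 0.19). TP53INP1 was highest in mavacoxib adherent cells (8.38 ± 0.23) and DMSO spheres (8.37 ± 0.08), which overlapped. DMSO adherent cells (8.12 ± 0.13) overlapped the first of these, and the groups below stepped down without overlap to 4.74 ± 0.06 in negative siRNA spheres.

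The genes most like each target over the 24 arrays are given as a description, since the points share culture forms, treatments and arrays. For FAS they were GABRA3 (Pearson's r 0.996), ALDH1A1 (0.994) and ATAD1 (0.994). For MDM2 they were SEPTIN11 (0.984), IL17RD (0.977) and ABRACL (0.977), and for GDF15 FXYD6 (0.973), HIP1 (0.972) and MPP2 (0.971). TP53INP1 was most like MTSS1 (0.967), FBXL5 (0.940) and PDCD4 (0.938). ZMAT3 was most like PIK3C2B (0.965), PFN2 (0.955) and NBEAL2 (0.954), and CCNG1 like PRKAG1 (0.961), ORMDL2 (0.957) and ADD3 (0.954). SESN1 was most like SPG11 (0.955), NCKAP5 (0.948) and CYP4A37 (0.944), and CDKN1A like SDF2L1 (0.934), NAMPT (0.921) and ENC1 (0.905). None of the 9 genes was among the 3 most like any other of them.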

How the data were processed

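The authors deposited log2 signals, 1 per array feature and array (27766 features, 24 arrays). Per the submitters' processing notes, the tool was Affymetrix Expression Console 1.1. Summarisation, normalization and genome build are not given in the sources used. Features with 1 gene symbol in the platform annotation were used, the brightest per gene by its mean over all arrays (16295 genes, no intensity filter). Symbols were not updated. A model of 8 group means was fitted with limma 3.58.1 in R 4.3.3 (16 residual and 5.54 prior degrees of freedom), for 10 two-sided comparisons, with Benjamini-Hochberg adjustment over all genes and a threshold of 0.05. Comparisons that share a control group share its arrays. The 9 genes and the gene lists (103 genes in 8 lists of other genes, 85 measured) were chosen with earlier results of these data known, as were the markers of fibroblasts, leukocytes, endothelium and bladder epithelium. All 9 genes were named in each comparison. From each other list up to 4 genes with the smallest adjusted p could be named, and the 3 genes with the highest Pearson's r for each of the 9. Replicate numbers gave no clear pairing: after subtraction of group means, 7 of 24 same-numbered pairs had a correlation over 0.1 (-0.172 to 0.273). No 2 arrays were duplicates, with at most 2.09% identical values. Alternatives were quantile normalization, arrays shifted to 1 median, dim genes left out, the mean of a gene's features, array weights, a replicate block, a robust variance trend, each array left out, and a fit to the arrays compared alone. The fit was tested on simulated data. No sequences are shown.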

Additional observations from a re-analysis of the deposited data

Results flagged for a closer look

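The 7 results below are differences between sphere and adherent effects that passed their own limma test. For mavacoxib 4 of the 9 genes passed, where 10.3% of all genes did, and for the labelled siRNA 3 of 9, where 15.3% did. The mavacoxib effect was more negative in spheres for MDM2, by -0.91 (adjusted p = 0.024), for TP53INP1, by -0.88 (adjusted p = 0.00668), and for ZMAT3, by -0.66 (adjusted p = 0.0275), and more positive for CDKN1A, by 0.68 (adjusted p = 0.00778). The effect of the labelled COX-2 siRNA was more positive in spheres for TP53INP1, by 1.43 (adjusted p = 4.3e-05), and for CDKN1A, by 0.90 (adjusted p = 0.000532), and more negative for FAS, by -0.66 (adjusted p = 0.0356). The call held in 14 of 20 alternatives for MDM2, and in 11 of 20 for ZMAT3 and for FAS. TP53INP1 and CDKN1A had passing effects of opposite sign in the culture forms with the labelled siRNA, but the adherent fall of CDKN1A held in 9 of 14 alternatives.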

How the results depend on the processing

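With array weights the number of the 9 genes called became 2 for mavacoxib in adherent cells, where 2472 of 16295 genes were called. It became 7 for negative siRNA against DMSO in spheres, where 9185 of 16295 were called. For the labelled siRNA in spheres it became 8, and the count of all genes there is not given here. SESN1 and CCNG1 with mavacoxib in spheres and FAS between adherent controls also passed with array weights. With only the arrays of a comparison the number of the 9 genes called became 3 for mavacoxib in spheres, and 3 in spheres and 1 in adherent cells for the labelled siRNA. The cause was not tested; fewer arrays leave fewer degrees of freedom. With the replicate block the counts equalled those given, 5 and 1 for mavacoxib in spheres and adherent cells, 5 and 2 for the labelled siRNA, 9 and 8 for culture form with negative siRNA and DMSO, 4 and 2 for the controls in spheres and adherent cells, and 4 and 3 for the differences between the mavacoxib and between the siRNA effects. Leaving out 1 array gave 4 to 6 for mavacoxib in spheres and 1 in adherent cells, 2 to 5 for the labelled siRNA in spheres and 1 to 2 in adherent cells, 9 and 8 for culture form with negative siRNA and with DMSO, 3 to 5 for the controls in spheres and 2 to 3 in adherent cells, and 2 to 4 and 2 to 3 for the differences between the mavacoxib and between the siRNA effects. Differences that turned sign had not passed. With array weights these were GDF15 (mavacoxib, adherent, -1e-04), CCNG1 (-0.013) and MDM2 (-0.041) between adherent controls, FAS between sphere controls (0.17), and, as differences between effects, FAS (6e-04) and SESN1 (-0.29) for mavacoxib and SESN1 (0.26) for siRNA. FAS between sphere controls was 0.013 with arrays shifted to 1 median, and the siRNA effect difference of SESN1 was 0.0056 after quantile normalization. Without 1 array, FAS (-0.17 to 0.068) and GDF15 (-0.11 to 0.16) with mavacoxib in adherent cells, MDM2 (-0.055 to 0.23) and PLK3 (-0.16 to 0.023) with the labelled siRNA in adherent cells, CCNG1 (-0.045 to 0.03), MDM2 (-0.15 to 0.13) and ZMAT3 (-0.11 to 0.058) between adherent controls, FAS between sphere controls (-0.19 to 0.082), and SESN1 for both effect differences (-0.24 to 0.28 for mavacoxib, -0.17 to 0.17 for siRNA) changed sign. Over all genes, 671 calls for mavacoxib in adherent cells became 1034 without dim genes, 2472 with array weights and 344 to 500 without 1 array. Array weights also gave 5535 for 3491 calls with mavacoxib in spheres (1904 with only its arrays), 9185 for 5758 and 4337 for 2257 between sphere and between adherent controls, and 3950 for 1680 and 5445 for 2489 in the differences between effects. Calls for the labelled siRNA in adherent cells were 1566 to 1985 without 1 array, for 2445, and between adherent controls 1427 to 1835. Shifting arrays to 1 median moved the median of all genes to -0.20 (negative siRNA) and -0.22 (DMSO) for culture form, and to -0.15 for the labelled siRNA in spheres. Signal over background limits FAS in spheres, GDF15 and SESN1 in adherent cells, and TP53INP1 in negative siRNA spheres.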
